A study of Mus musculus with 18 samples.

Results

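Mt1 and Mt2, the genes of metallothionein 1 and metallothionein 2, were followed through mouse bone marrow (BM) from late gestation to adulthood. They were chosen by name and are 2 of the 20275 genes in the deposited matrix of single-cell counts, in which each count is a unique molecular identifier (UMI), the tag that marks 1 captured transcript. The matrix holds 56201 cells of C57B6/J mice in 9 libraries made by the 10x Genomics 3′ method. Of these, 5 hold hematopoietic progenitors (HPs), sorted as Lineage-Kit+ cells, and 4 hold stroma, sorted as CD45-Ter119- cells after enzymatic digestion. There were 2 HP libraries from E16.5 (embryonic day 16.5) and 1 library for each other stage and compartment, the stages being E18.5, P0 (the day of birth) and adult. All mice were untreated and of 1 strain, and each library was made from pooled animals. The scRNA-seq experiments were not repeated by the authors, and no source used here says whether the E16.5 HP pair came from separate pools, so the spread between these libraries may be technical. Mt3, the brain metallothionein, was at most 1.86 CPM (UMIs of the gene scaled to 1000000 UMIs in all) in any library, and 0 of 59206442 UMIs in adult HPs, which allows up to 0.0507 CPM (3 counts). Mt4 is not a row of the matrix.

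Metallothioneins are small cysteine-rich proteins that bind zinc and copper, and also cadmium. Their genes are switched on by metals through the zinc-sensing factor MTF-1, which binds metal response elements (MREs) in their promoters, and also by glucocorticoids, by IL-6 through STAT3 and by oxidative stress. In the fetal and newborn mouse they are best known as an abundant zinc and copper store of the liver, which is a blood-forming organ at that age, and they are also known in erythroid cells, where hemoglobin and zinc enzymes such as carbonic anhydrase are made. Handling and enzymatic digestion of tissue can itself induce stress genes, among them metallothioneins.

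Mt1 and Mt2 lie side by side on the plus strand of mouse chromosome 8 (build GRCm38.p6, RefSeq). The Mt2 gene spans chr8:94172618-94173567, and the Mt1 transcript begins 5521 bases further on and spans chr8:94179089-94180327. Each has 3 exons and a coding sequence of 186 bases for 61 residues, and 148 of the 186 coding bases (79.6%) were identical between the genes. The longest run of bases shared by both transcripts was 20 bases, and within the last exons, where 3′ reads mostly fall, it was 16 bases. The MRE core was searched as TGCACNC and TGCGCNC on both strands, from 250 bases before to 50 bases after each annotated start. The 7 matches are shown because they are the sequence feature for which these promoters are known, each with 11 bases on either side and the core in capitals, read on the strand of the core.

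Mt2, chr8:94172384-94172412, plus strand, core 223 bases before the start: agcatcgcctcTGCACCCggcccctcggg

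Mt2, chr8:94172479-94172507, plus strand, core 128 bases before the start: cgcagacccttTGCGCTCagctcctttgc

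Mt2, chr8:94172557-94172585, minus strand, core 50 bases before the start: gggacagagccTGCACACgccctcccccc

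Mt2, chr8:94172611-94172639, minus strand, core in the first exon: gcccctgggccTGCGCACgacccgaattc

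Mt1, chr8:94179055-94179083, plus strand, core 23 bases before the start: cggtcccgctgTGCACACtggcgctccag

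Mt1, chr8:94179080-94179108, plus strand, core in the first exon: ccagggagctcTGCACTCcgcccgaaaag

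Mt1, chr8:94179098-94179126, plus strand, core in the first exon: cgcccgaaaagTGCGCTCggctctgccaa

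The 7 cores do not overlap each other. Mt2 held 4 cores and Mt1 held 3, whereas Mt3 and Mt4, the other members of the same gene cluster, held 1 each. At least 1 core was found in 25.7% of 32851 promoter windows of this length, at least 3 cores in 1.97% and at least 4 in 0.517%. TGACNNNGC, the antioxidant response element bound by NRF2, matched once in the Mt2 window and not in the Mt1 window, and was present in 12.4% of all windows. A match of letters is a description and not a measured binding site. The counts depend on the annotated start, and matches outside the window were not counted. For Mt1 the gene record begins at chr8:94178883 and the transcript used at chr8:94179089. The words start and first exon refer to that transcript, so the Mt1 and Mt2 counts may not cover like stretches of promoter.

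The libraries held between 13974733 UMIs in E16.5 HP library 1 (560 cells) and 194892476 in P0 stroma, with a median per cell from 6747 in adult HPs to 23291.5 in E16.5 HP library 1. Cell barcodes were shared more often among E16.5 HP library 1 and the later HP libraries than in other pairs. Of the 560 barcodes of E16.5 HP library 1, 330 were also in the adult HP library, and 375 were shared by the E18.5 and adult HP libraries, while no pair with a stromal library shared more than 0.869% of the smaller one and no pair with E16.5 HP library 2 and another HP library more than 0.179%. In all, 960 HP cells had the barcode of a deeper cell in another HP library, among them 644 of 5985 adult HP cells (10.8%). They made up most of some shallow clusters, namely 185 of 201 cells of adult Mast4i, 208 of 274 of P0 Mast4, 40 of 41 of E18.5 Mast/Bas and 332 of 701 of adult MyP4. The main Mt1 and Mt2 results that rest on those clusters are given with and without these cells. The gene lists were not read again without them. Clusters carry the codes of the deposited annotation, checked against marker genes among the top 10 genes by fold. Of 74 HP clusters 64 passed this check and of 66 stromal clusters 56 did, where a failure means that markers of another class outnumbered its own. A cluster with no listed marker of any class among these genes also passed, such as TCell1, TCell6 and EryP2. A pass thus need not mean marker support. Values are CPM of UMIs summed over the cells of a library or cluster, with exact Poisson 95% intervals in parentheses that cover counting error only.

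In HPs, Mt1 was expressed in every library and was highest at birth, whereas Mt2 was nearly absent at E16.5. Mt1 was at 193 CPM (185 to 200.1) and 65.6 CPM (63.96 to 67.2) in E16.5 HP libraries 1 and 2. It was at 428 CPM (423 to 433) at E18.5, 752 CPM (748 to 757) at P0 and 298 CPM (293 to 302) in the adult. The 3 later libraries lay above both E16.5 libraries, and the P0 library was the highest. Mt2 was at 3.72 CPM (2.78 to 4.88) and 0.960 CPM (0.774 to 1.18) in the E16.5 pair. It was at 93.7 CPM (91.4 to 96.1) at E18.5, 277 CPM (274 to 280.1) at P0 and 63.2 CPM (61.1 to 65.2) in the adult. Thus the 2 genes followed the same order of stages, but the span of Mt2 was the wider one. P0 over E18.5 gave a ratio of 1.76 for Mt1 and 2.96 for Mt2, and adult over P0 gave 0.396 and 0.228. The E16.5 libraries differed from each other by 2.94-fold for Mt1 and 3.88-fold for Mt2, more than P0 over E18.5 for both genes. It was also more than P0 over adult for Mt1 (2.53-fold), but less than P0 over adult for Mt2 (4.39-fold).

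In stroma both genes were higher at each later stage, with 1 library per stage and so no replicate check. Mt1 was at 105 CPM (104 to 107) at E16.5, 246 CPM (243 to 249) at E18.5, 346 CPM (343 to 348) at P0 and 498 CPM (494 to 503) in the adult. Mt2 was at 16.9 CPM (16.1 to 17.6), 41.0 CPM (39.8 to 42.2), 86.8 CPM (85.5 to 88.1) and 137 CPM (135 to 139.7) at the same stages. No 2 neighbouring stages had overlapping intervals for either gene. Adult over E16.5 gave 4.73 for Mt1 and 8.13 for Mt2. By the study's methods adult marrow was treated with a red blood cell lysis buffer and fetal marrow was not. Adult marrow came from tibias, femurs, pelvic bones and spines, and fetal marrow from the skeleton without the head. For the adult libraries of both compartments, stage, lysis and the bones sampled thus cannot be told apart.

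**Figure D1:**
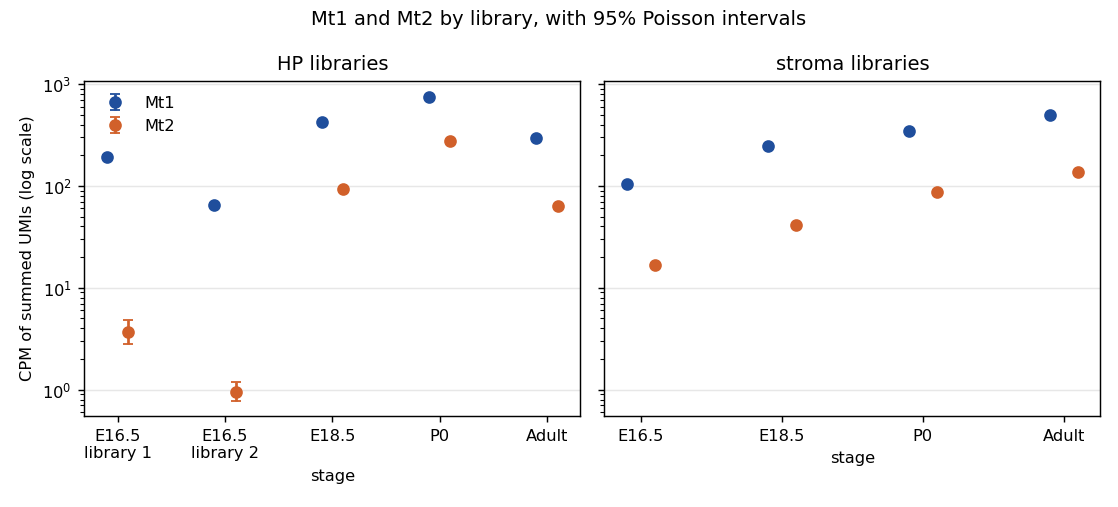
CPM of summed UMIs (log scale) of Mt1 (blue) and Mt2 (orange) by stage in the 5 HP libraries (left) and the 4 stromal libraries (right), with exact Poisson 95% intervals, most of which are smaller than the points. Mt2 in HPs goes from 3.72 and 0.960 CPM in the E16.5 pair to 277 CPM at P0, while both genes are higher at each later stage in stroma.

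The E16.5 HP libraries differed in their cells as well as in Mt1. Comparing the same cluster codes, library 1 over library 2 gave 1.73 (95% interval 1.55 to 1.93) in Mast1, 2.13 (1.93 to 2.36) in Mast2i, 1.70 (1.48 to 1.94) in Mast2ii and 2.00 (1.79 to 2.22) in Mono/Mast. HSPC1 gave 4.00 (3.00 to 5.34), from 121 CPM in 33 cells against 30.3 CPM in 165 cells. The interval included 1 in the other 4 codes, which had 13 to 29 cells in library 1: UD2, Eos/Bas1, Bcell1 and TCell5. With the cell makeup of library 2 applied to both over these 9 codes, Mt1 was at 162 CPM and 86.0 CPM, a ratio of 1.89. The clusters with T cell codes that fill much of library 2 were nearly missing from library 1, which had 5 cells of such codes outside TCell5.

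HP clusters differed in Mt1 more than stages did. In E16.5 HP library 2 Mt1 was highest in the neutrophil cluster Neu1, at 215 CPM (196 to 237), followed by UD2 (36 cells) at 153 CPM, with an interval of 99.2 to 226 that overlaps that of Neu1, and Mono/Mast at 137 CPM. It was lower in the T cell clusters that passed the marker check, from 30.2 CPM in TCell1 to 4.10 CPM in TCell5. TCell1 passed this check with no listed marker of any class. TCell3 and TCell2, at 55.5 and 40.7 CPM, failed it, with no T cell marker of the list and 1 erythroid marker (Hbb-bt) among their leading genes, which also hold the T cell receptor gamma genes Tcrg-C1 and Tcrg-C2. Mt2 did not exceed 6.48 CPM in any cluster of at least 50 cells of that library, and no Mt2 UMI was found in Neu1, HSPC1, TCell5 or TCell6. Of the 14 clusters in E16.5 HP library 1, 4 had at least 50 cells, and the highest of these was Mono/Mast, at 273 CPM (257 to 290.1).

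At E18.5 and P0 the erythroid clusters stood highest, and in the adult EryP2 shared the top of the order with MyP4. At E18.5 the joint erythroid and megakaryocyte progenitor cluster EryP/MegP (205 cells) had 1644 CPM of Mt1 (1617 to 1670.3) and 604 CPM of Mt2. The next cluster, coded Mono2, had 618 CPM of Mt1. It failed the marker check, and its leading genes included P2ry12, Fcrls and Sall1, which are known from microglia. At P0 the erythroid cluster EryP1 had 2626 CPM of Mt1 (2602 to 2650.1) and 1489 CPM of Mt2. Each of its 465 cells held an Mt1 UMI, and 99.8% held an Mt2 UMI. The megakaryocyte cluster MegP1 followed with 1172 CPM of Mt1 and 357 CPM of Mt2. In the adult the erythroid cluster EryP2, led by Slc4a1, Cldn13 and Rhd, had 709 CPM of Mt1 (694 to 723) and 266 CPM of Mt2, whereas MegP2 had 153 CPM and 23.3 CPM. At E18.5 and P0 the interval of the erythroid cluster was apart from all others of its library. In the adult the Mt1 interval of EryP2 overlapped that of the cluster coded MyP4 (685 CPM, 620.2 to 755), also without the cells of MyP4 with shared barcodes (676 CPM, 599 to 759), so which of these was the highest is not resolved. P0 EryP1 was the highest of the 3 erythroid clusters.

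Some myeloid clusters came next, and many of these combined much Mt1 with little Mt2, but the class was wide. MyP2, a myeloid progenitor cluster, had 467 CPM of Mt1 and 3.46 CPM of Mt2 at E18.5, and 383 CPM and 15.7 CPM at P0. MyP3, which is led by neutrophil granule genes such as Camp, S100a8 and Elane, had 791 CPM and 22.7 CPM at P0. MyP5 had 483 CPM and 3.66 CPM in the adult, and the adult clusters coded Mono4 and Mono5 had 178 and 181 CPM of Mt1 with 0.524 and 0.703 CPM of Mt2. Mono5 was led by Siglech, a dendritic cell marker, and held no monocyte marker among its leading genes. Other clusters with myeloid codes were low in Mt1, among them MyP1 at 78.9 CPM, Mono1iii at 47.7 CPM, Bas1 at 45.6 CPM and Neu2 at 31.9 CPM at E18.5, and Neu3 at 99.0 CPM, Eos/Bas4 at 51.0 CPM and Mono6 at 40.6 CPM in the adult. A few were not low in Mt2, with 183 CPM in Mono2 and 104 CPM in Mono1 at P0. The basophil cluster Bas2 had 659 CPM and 126 CPM at P0, and the mast cluster Mast3 had 387 CPM and 31.7 CPM at E18.5, and 424 CPM and 50.3 CPM at P0. Adult MyP4, with 685 CPM and 214 CPM, is a shallow cluster (median 570 UMIs per cell) that failed the marker check. Its leading genes were Stfa1, Hba-a2, Mt2, Srm and Hbb-bs, and without the 332 cells with shared barcodes its Mt2 was at 236 CPM.

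Most stem cell and lymphoid clusters were low. HSPC2 had 21.3 CPM of Mt1 at E18.5 and 51.4 CPM at P0, HSPC3 had 63.9 CPM at P0 and HSPC5 had 35.2 CPM in the adult. At E18.5 and in the adult the clusters coded HSPC failed the marker check. HSPC4 (112 cells) stood apart at 456 CPM of Mt1 and 73.7 CPM of Mt2, and P0 BCell2 (61 cells), a B lineage cluster, was at 161 CPM of Mt1 (114 to 219.8). The lymphoid progenitor cluster LymP was the lowest at P0, at 33.3 CPM, TCell5 the lowest at E18.5, at 5.45 CPM, and T/NK the lowest in the adult, at 19.99 CPM. Among clusters of at least 50 cells the highest was 302 times the lowest at E18.5, 78.7 times at P0 and 35.4 times in the adult. In the order of all clusters by Mt1, neighbours had overlapping intervals in 14 of 18 pairs at E18.5, 10 of 19 at P0, 13 of 17 in the adult and 12 of 16 in E16.5 library 2, so many ranks are not resolved, including the first in the adult and in E16.5 library 2.

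**Figure D2:**
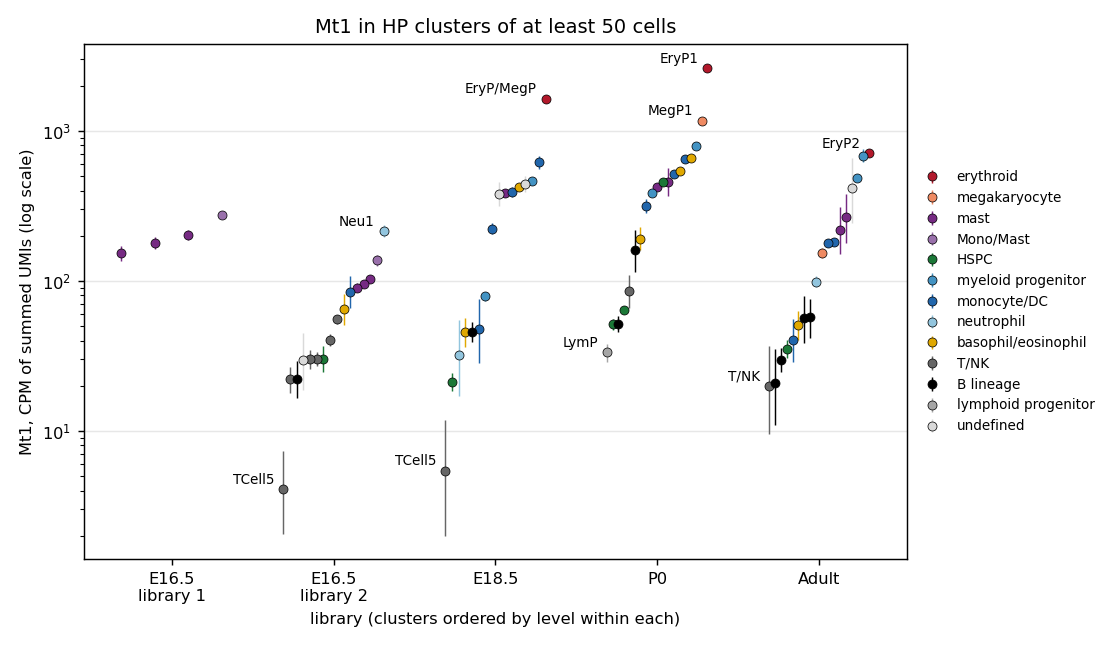
Mt1 CPM (log scale) with exact Poisson 95% intervals in each HP cluster of at least 50 cells, ordered by level within each library and colored by cell class. Erythroid clusters are at the top at E18.5 (1644 CPM) and P0 (2626 CPM), and in the adult EryP2 (709 CPM) overlaps MyP4 (685 CPM), with no erythroid cluster at E16.5.

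The erythroid and megakaryocyte clusters held most of the Mt2 UMIs of their libraries. At E18.5 they made up 5.90% of cells and held 53.6% of Mt1 and 90.1% of Mt2 UMIs. At P0 they were 18.5% of cells with 67.2% and 89.1%, and in the adult 14.9% with 55.4% and 94.5%. When these clusters were left out, the E18.5, P0 and adult HP libraries had 231, 335 and 186 CPM of Mt1 and 10.8, 40.9 and 4.87 CPM of Mt2. Mt1 of the adult remainder then lay within the interval of E16.5 library 1, and Mt2 of the E18.5 and P0 remainders lay above both E16.5 libraries. Mt2 of the adult remainder lay within the interval of E16.5 library 1, and MyP4 held 127 of its 206 Mt2 UMIs. Without MyP4 it was at 1.89 CPM.

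Erythroid transcripts were also present in other clusters, in most of them at a low level by the median of a marker list. A list of 12 erythroid markers was expressed as a percentage of the level in the erythroid cluster of the same library. At P0 the median of the 12 was 4.22% in HSPC2, 10.1% in HSPC4, 9.00% in Mast3, 15.0% in Bas2 and 18.3% in Mono2. Mt2 on the same scale was at 0.903%, 4.94%, 3.37%, 8.48% and 12.3%, below the marker median in each of these 5. Over clusters of at least 50 cells outside EryP and MegP, Mt2 was below the marker median in 10 of 15 at E18.5, 15 of 17 at P0 and 10 of 16 in the adult, and above it in the others. At E18.5 Mono2 had Mt2 at 8.71% against a marker median of 0.321%, and HSPC2 had 0.396% against 3.16%. The list includes genes that other progenitors express, such as Gata1 in mast cells and Tfrc in dividing cells. The globin gene Hbb-bt was higher in some other clusters than in the erythroid one. It was at 432 CPM in P0 HSPC2 against 31.9 CPM in EryP1, and at 470 CPM in E18.5 HSPC2 against 28.9 CPM in EryP/MegP. Over the same clusters outside EryP and MegP, Mt1 was above the marker median in 13 of 15 at E18.5, 12 of 17 at P0 and 16 of 16 in the adult. Examples among clusters with myeloid codes were 30.1% against 1.03% in P0 MyP3, 68.1% against 0.530% in adult MyP5 and 25.1% against 0.378% in adult Mono4. The part of stray erythroid RNA in the Mt2 of non-erythroid clusters was not tested.

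Stromal clusters were ordered by Mt1 in a different way at each stage, and clusters with endothelial codes were near the bottom after E16.5. At E16.5 the cartilage cluster C4, led by Serpina3n and Matn1, was highest at 370 CPM of Mt1 (358 to 381) and 31.2 CPM of Mt2. It was followed by F4 at 260.2 CPM, whose leading genes Myh11, Rgs5 and Higd1b mark pericytes and smooth muscle. The fibroblast cluster F2 was lowest, at 15.7 CPM. UD1 (62 cells) had 233 CPM of Mt1 and 45.3 CPM of Mt2, and was the cluster with the highest Mt3 among stromal clusters of at least 50 cells, at 263 CPM. At E18.5 the cartilage clusters C6 and C5 had 568 and 491 CPM of Mt1, P2 had 481 CPM and the Schwann cell cluster 416 CPM, whereas the cluster coded ECs, for endothelial cells, had 19.1 CPM. This cluster (94 cells) failed the marker check, with 1 endothelial marker of the list against 2 of the HSPC list among its leading genes, which also hold Sox17 and Icam2, known from endothelium. At P0 UD3 (129 cells, median 1873 UMIs per cell), with the pigment cell genes Tyrp1, Dct, Mlana and Tyr in front, was highest at 1406 CPM of Mt1 (1262 to 1561) and 213 CPM of Mt2. P2, Schwann and C5 followed with 669, 609 and 550.1 CPM, while ECs had 74.9 CPM and the cartilage cluster C1 had 67.7 CPM.

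In adult stroma 1 small cluster of muscle stem cell type was far above the rest. P1 (122 cells), with the muscle stem cell genes Pax7, Myf5 and Myod1 among its leading genes, had 2662 CPM of Mt1 (2549 to 2779.7) and 782 CPM of Mt2. The fibroblast cluster F8 followed with 902 and 305 CPM, and the CXCL12-abundant reticular cells (CARs), a stromal source of niche factors, with 767 and 128 CPM. Osteolineage cells (Osteo) had 149 CPM of Mt1, sinusoidal endothelial cells (SECs) 94.9 CPM and the cluster coded AECs, for arterial endothelial cells, 75.6 CPM. AECs failed the marker check, with no endothelial marker of the list and Prg2, a basophil and eosinophil marker, among their leading genes, which also hold Sox17 and Gpihbp1, known from endothelium. Leaving aside UD2 at P0 (median 474 UMIs per cell, 32.9 CPM), the lowest stromal cluster was F2 at E16.5, ECs at E18.5, C1 at P0 and AECs in the adult. The highest cluster was 23.6, 29.7, 42.7 and 35.2 times the lowest at the 4 stages in turn, over clusters of at least 50 cells and with UD2 as the lowest at P0.

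**Figure D3:**
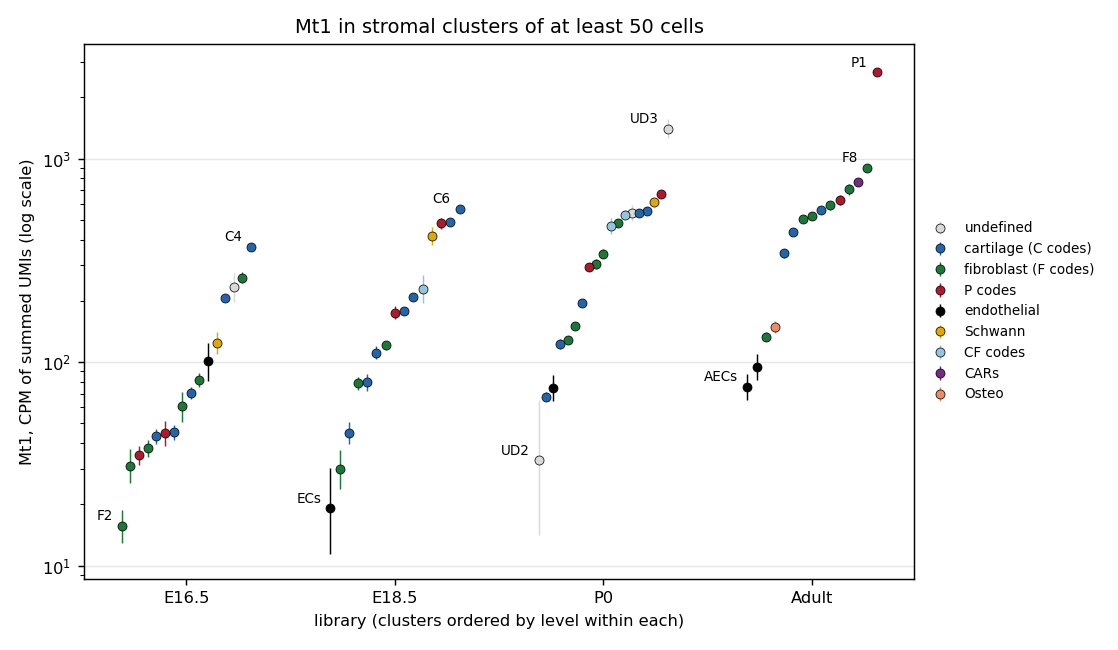
Mt1 CPM (log scale) with exact Poisson 95% intervals in each stromal cluster of at least 50 cells, ordered by level within each library and colored by the class of its code. The adult P1 cluster (2662 CPM) and the P0 UD3 cluster (1406 CPM) lie above all others of their libraries, and clusters with endothelial codes lie at the low end from E18.5 on, where E18.5 ECs and adult AECs failed the marker check.

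Codes found at more than 1 stage were compared, although a shared code need not mean the same cells. Of 13 such stromal codes, Mt1 was higher at the last stage than at the first in 12, with intervals apart in all 12, and the median ratio was 2.66. These include C2i, which failed the marker check at both of its stages, and CF1, which failed it at E18.5. Intervals apart cover counting error only and not the spread between libraries of 1 stage, which stroma cannot show. Of 9 codes compared between the E16.5 HP libraries, Mast1, Mast2i, Mast2ii, Mono/Mast and HSPC1 differed by 1.70 to 4.00 with intervals above 1. In the other codes of that pair the interval included 1. The stromal median of 2.66 lies within that range. F2 went from 15.7 CPM at E16.5 through 78.6 CPM at E18.5 to 128 CPM at P0. Schwann cells went from 125 through 416 to 609 CPM, and C5 from 207 through 491 to 550.1 CPM. F5 went from 30.9 CPM at E16.5 to 342 CPM at P0, and F3ii from 29.9 CPM at E18.5, where it failed the marker check, to 303 CPM at P0. P1 went from 175 CPM at E18.5 to 2662 CPM in the adult, but the 2 clusters share a code and not all leading genes. Both had Myod1 and Ankrd1 among these, while E18.5 P1 had Myog, Mymx and Tnnt2, known from muscle differentiation, and adult P1 had the muscle stem cell genes Pax7 and Myf5. ECs were the exception in the summed values, with 101 CPM (81.1 to 125) at E16.5, 19.1 CPM at E18.5, where the cluster failed the marker check, and 74.9 CPM (64.5 to 86.6) at P0, where the first and last intervals overlap. However, 1 of the 71 E16.5 cells held 55 of their 88 Mt1 UMIs. With the cell richest in Mt1 and Mt2 left out of each cluster, ECs were at 38.9 CPM at E16.5, 12.0 CPM at E18.5 and 60.7 CPM at P0. All 13 stromal codes were then higher at the last stage than at the first. E18.5 P1 was then at 133 CPM, and E16.5 F5 at 20.9 CPM.

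Of 7 HP codes found at more than 1 stage, Mt1 was higher at the last stage in 6, with intervals apart in 4, and the median ratio was 2.41. This median too lies within the 1.70 to 4.00 by which some codes differed between the E16.5 HP libraries. Bcell1, a B lineage cluster, had 13.3 and 22.4 CPM in the E16.5 pair, 45.8 CPM at E18.5 and 51.7 CPM at P0. TCell5 had 3.62 and 4.10 CPM in the E16.5 pair, 5.45 CPM at E18.5 and 86.1 CPM at P0. At P0 1 of its 68 cells held 25 of its 64 Mt1 UMIs, and without that cell it was at 55.3 CPM. HSPC2 went from 21.3 to 51.4 CPM and Neu2 from 31.9 to 141 CPM between E18.5 and P0. Mast3 (387 and 424 CPM) and Mono2 (618 and 655 CPM) had overlapping intervals at these stages, and MyP2 was lower at P0 than at E18.5 (383 and 467 CPM). No code was shared by adult HPs and an earlier HP library.

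**Figure D4:**
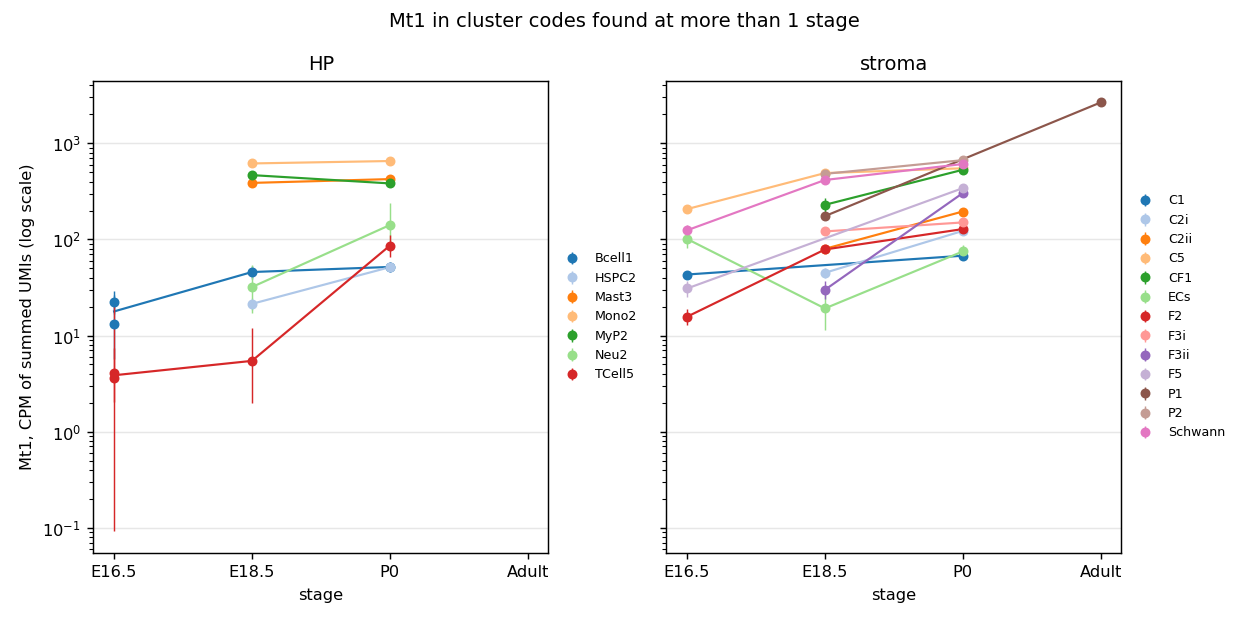
Mt1 CPM (log scale) by stage for each cluster code with at least 10 cells at more than 1 stage, in HPs (left, 7 codes) and stroma (right, 13 codes). Points are libraries with exact Poisson 95% intervals and lines join stage means, with both E16.5 HP libraries drawn. Most lines go up, with MyP2 (467 to 383 CPM) and ECs (101 to 74.9 CPM) as the exceptions, where 1 cell held most of the E16.5 Mt1 UMIs of ECs.

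The ratio of Mt2 to Mt1 UMIs was high in erythroid clusters and very low in some myeloid clusters. It compares clusters with each other, since capture can differ between the genes. It was 0.567 (95% interval 0.559 to 0.576) in P0 EryP1, 0.368 (0.356 to 0.379) in E18.5 EryP/MegP, 0.376 (0.361 to 0.391) in adult EryP2 and 0.305 (0.296 to 0.314) in P0 MegP1. In contrast, it was 0.00742 (0.00516 to 0.0103) in E18.5 MyP2, 0.00759 (0.00511 to 0.0108) in adult MyP5 and 0.00294 (0.000605 to 0.00861) in adult Mono4. These 3 myeloid intervals lay far below those of the erythroid clusters. Other clusters with myeloid codes came closer, with 0.192 (0.181 to 0.203) in P0 Bas2, 0.2002 (0.178 to 0.225) in P0 Mono1, 0.280 (0.247 to 0.317) in P0 Mono2 and 0.313 (0.254 to 0.383) in adult MyP4, or 0.349 (0.274 to 0.4397) without its cells with shared barcodes. MyP4 failed the marker check, and its median of the 12 erythroid markers was at 34.2% of the EryP2 level. Its ratio thus cannot be read as that of myeloid cells. P0 Neu2 (28 cells) had 0.462 (0.144 to 1.30). The intervals of Mono2, MyP4 and Neu2 overlap that of at least 1 erythroid or megakaryocyte cluster named above. At P0, some clusters of low Mt1 had ratios like that of the whole library (0.369), namely LymP at 0.355 (0.267 to 0.466) and TCell5 at 0.391 (0.236 to 0.629), whereas HSPC3 had 0.131 (0.108 to 0.157). In TCell5 1 cell held 15 of the 25 Mt2 UMIs, and without it the ratio was 0.256. In LymP 1 cell held 18 of 72 Mt2 and 50 of 203 Mt1 UMIs, but without it the ratio was nearly the same (0.353).

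In stroma the muscle clusters had the highest ratios. P0 P3, led by Myog, Myod1 and Myf5, had 292 CPM of Mt1 and 222 CPM of Mt2, a ratio of 0.760 (0.723 to 0.799). E16.5 P1i, with Pax7 and Myf5 among its leading genes, had 34.8 and 23.7 CPM, a ratio of 0.680 (0.577 to 0.801), and E18.5 P1 had 0.444 (0.389 to 0.506). These were the highest ratios of their libraries among clusters of at least 50 cells. Adult P1 did not share this, with 0.294 (0.268 to 0.322). The Schwann clusters had the lowest ratio at E16.5 and E18.5, at 0.0327 (0.0139 to 0.0654) and 0.0765 (0.0505 to 0.112). Across clusters of at least 50 cells, Spearman's rho between the levels of both genes was 0.748 in 73 HP clusters and 0.906 in 65 stromal clusters. Clusters of 1 library share its depth and stray RNA, so this is a description.

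**Figure D5:**
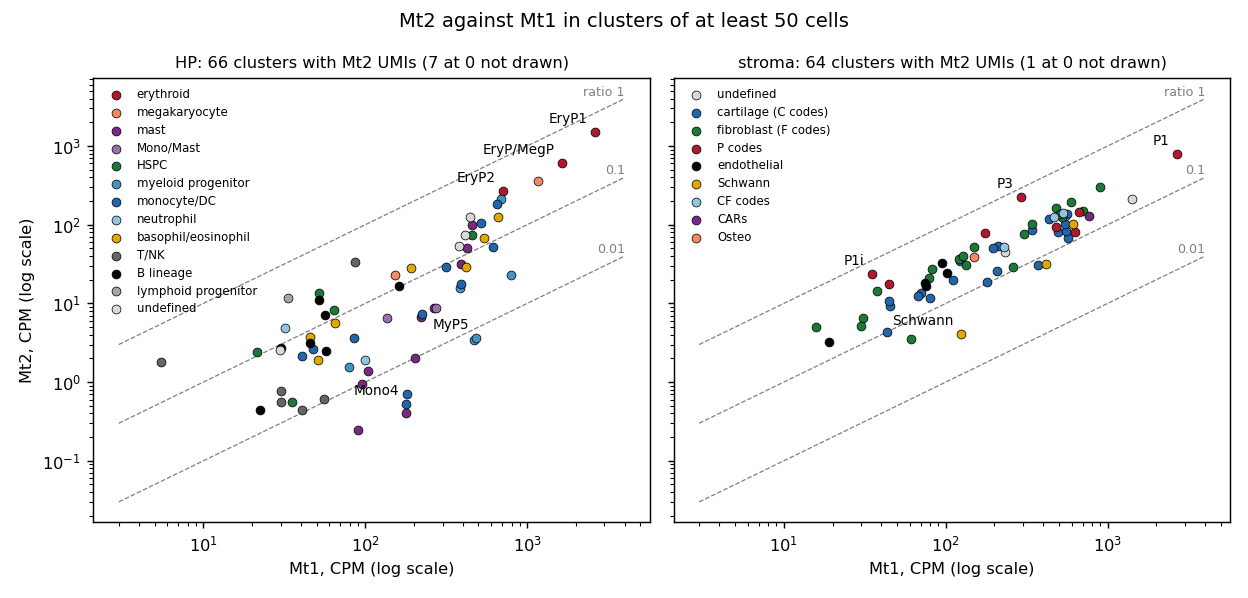
Mt2 CPM against Mt1 CPM (both log scales) in clusters of at least 50 cells with an Mt2 UMI, 66 in HPs (left) and 64 in stroma (right), with 7 and 1 clusters at 0 not drawn. Colors are cell classes and dashed lines mark constant ratios of Mt2 to Mt1. EryP1 (0.567) and P3 (0.760) lie near the upper line, and MyP5 (0.00759) and Mono4 (0.00294) near or below the lowest.

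Stages were tested in HPs with edgeR's quasi-likelihood test on UMIs summed per library. This test rests on the E16.5 pair for its spread (1 residual degree of freedom) and assumes that the single libraries vary like that pair. In all HP cells (16114 genes tested) Mt2 was higher than at E16.5 by a log2 fold change of 6.99 ± 0.81 (SE) at P0 (edgeR, Benjamini-Hochberg adjusted p = 0.03763) and of 5.04 ± 0.76 in the adult (edgeR, Benjamini-Hochberg adjusted p = 0.02092). It did not pass at E18.5, with 5.34 ± 0.76 (edgeR, Benjamini-Hochberg adjusted p = 0.07688). Mt1 passed at no stage in edgeR, with log2 fold changes of 1.66 ± 0.66, 2.57 ± 0.66 and 1.41 ± 0.66 for E18.5, P0 and adult (edgeR, Benjamini-Hochberg adjusted p = 0.709, 0.2541 and 0.372). However, Mt2 at E18.5 and Mt1 at P0 both passed with DESeq2 and with genes of any count in edgeR. With the mean of per-cell CPM, the log2 ratio of Mt2 over the E16.5 pair was lower, at 5.38 at P0 and 3.55 in the adult. Of all genes tested, 0.00621% were called higher and 0% lower at E18.5. The shares were 0.168% and 0.124% at P0, and 1.35% and 0.993% for the adult. The 1 higher and 0 lower genes at E18.5 became 135 and 211 with DESeq2, the 27 higher and 20 lower genes at P0 became 185 and 369, and the 218 and 160 in the adult became 431 and 713. Without the EryP and MegP clusters the log2 fold change of Mt2 fell to 4.20 at P0 and 1.29 in the adult, and neither passed. Without E16.5 library 1 it was 8.12 at P0 and 6.16 in the adult, and without library 2 it was 6.20 and 4.24.

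In mast clusters both genes were higher at P0 than at E16.5. The mast clusters had 181 and 97.2 CPM of Mt1 in the E16.5 pair, 387 CPM at E18.5 and 426 CPM at P0. Mt2 was at 0.95 and 0.948 CPM in the E16.5 pair (7 and 31 UMIs), 31.5 CPM at E18.5 and 52.6 CPM at P0. The E16.5 sums nearly coincided and lay far below the others, but the single clusters differed between the libraries. Mast1 was at 0.409 and 1.39 CPM, Mast2i at 2.04 and 0.958 CPM and Mast2ii at 0 and 0.243 CPM in libraries 1 and 2, each from at most 18 UMIs. Among 11135 genes, Mt2 was higher by 4.81 ± 0.33 at E18.5 and 5.63 ± 0.32 at P0 on the log2 scale (edgeR, Benjamini-Hochberg adjusted p = 5.853e-08 and 2.819e-09). Mt1 was higher by 1.45 ± 0.38 at P0 (edgeR, Benjamini-Hochberg adjusted p = 0.01737), a call that DESeq2 did not make, and by 1.23 ± 0.38 at E18.5, which did not pass (edgeR, Benjamini-Hochberg adjusted p = 0.05632). Without E16.5 library 1 the P0 value of Mt1 was 2.00, and without library 2 it was 1.07. Of all genes, 4.59% were called higher and 2.96% lower at E18.5, and 7.89% and 3.17% at P0. Without TMM scaling, the trimmed mean factors that align libraries, the calls were 908 higher and 202 lower in place of 511 and 330 at E18.5, and 1115 and 251 in place of 879 and 353 at P0. The median log2 fold change of all genes then moved from -0.01 to 0.22 at E18.5 and from -0.02 to 0.13 at P0. With DESeq2 the calls were 40 higher and 53 lower at E18.5, and 70 and 33 at P0.

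The mast clusters summed here were Mast1, Mast2i and Mast2ii at E16.5, Mast3 and Mast/Bas at E18.5 and Mast3 and Mast4 at P0. Without the cells with shared barcodes, Mt1 was at 388 CPM at E18.5 and 427 CPM at P0, and Mt2 at 31.6 and 52.8 CPM. The log2 fold changes at these stages were then 1.26 and 1.44 for Mt1 and 4.82 and 5.61 for Mt2. P0 Mast4 held stromal genes such as Col3a1, Col1a1 and Sparc among its leading genes beside the mast genes Tpsb2, Cma1 and Mcpt4. Of 38 fibroblast, cartilage and osteolineage markers, 12 and 22 had a UMI in the mast clusters of the E16.5 pair, 16 at E18.5 and 32 at P0. They summed to 78.2 and 84.2 CPM, 61.3 CPM and 231 CPM in these libraries. Without Mast4 it was 14 markers and 92.1 CPM at P0, Mt1 was then at 424 and Mt2 at 50.3 CPM, and both genes still passed at P0, with log2 fold changes of 1.46 and 5.58. In Mast3, 1 cell held 45 of 133 Mt2 UMIs at E18.5 and 1 held 45 of 197 at P0, and without these cells Mast3 was at 21.1 and 39.2 CPM of Mt2.

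The 12 erythroid markers summed to 241 and 310.2 CPM in the mast clusters of the E16.5 pair, 476 CPM at E18.5 and 492 CPM at P0. Rhag, an erythroid membrane gene, was at 0 in the mast clusters at E16.5 and E18.5 and at 1.63% of its EryP1 level at P0, where Mt2 was at 3.53% of its EryP1 level. At E18.5 Mt2 of mast clusters was at 5.21% of its level in EryP/MegP, with Rhag at 0% and Ermap, a further erythroid membrane gene, at 0.376%. Klf1, the erythroid Krüppel-like factor gene, was above Mt2 on this scale, at 10.4% at E18.5 and 6.77% at P0, where Ermap was at 2.18%. The part of erythroid RNA in the Mt2 of mast clusters was not tested. The adult mast value rests on Mast4i (201 cells, 33 UMIs of Mt1 and 1 of Mt2), and the differences did not pass (edgeR, Benjamini-Hochberg adjusted p = 0.9067 for both genes, with 0.153% of genes called higher). Without the 185 cells with shared barcodes it held 2 Mt1 UMIs and no Mt2 UMI.

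In HSPC clusters only P0 could be set against E16.5, because at E18.5 and in the adult no cluster coded HSPC passed the marker check. Mt1 was at 121 and 30.3 CPM in the E16.5 pair and at 123 CPM at P0, close to the higher of the pair, and did not pass (log2 fold change 0.90 ± 0.42, edgeR, Benjamini-Hochberg adjusted p = 0.3011). Mt2 had no UMI among 4038965 in the E16.5 pair, which allows 0.743 CPM for 3 counts over both libraries, and was at 20.5 CPM at P0. It was thus at least 27.6-fold higher at P0 (edgeR, Benjamini-Hochberg adjusted p = 1.425e-12), where 1.49% of 11033 genes were called higher and 4.26% lower (164 and 470 genes, or 25 and 309 with DESeq2). The clusters coded HSPC that failed the check had less Mt2, with 2.39 CPM in E18.5 HSPC2 (24 UMIs) and 0.551 CPM in adult HSPC5 (3 UMIs). The adult value lay below the 0.743 CPM allowed at E16.5, so a higher Mt2 was not seen at all later stages. HSPC4, with 112 of the 1505 P0 cells, held 2290 of their 3842 Mt1 and 370 of their 643 Mt2 UMIs. Without it Mt1 at P0 was at 58.95 CPM, between the E16.5 libraries, and its log2 fold change turned to -0.16. Mt2 was then at 10.4 CPM, at least 14.0-fold higher than at E16.5, and still passed. At P0 the Mt2 of all 3 clusters together was at 1.38% of its EryP1 level, and the erythroid genes Klf1, Rhag and Ermap were at 2.94%, 1.68% and 1.19%. Rhag and Ermap had no UMI in the HSPC clusters of either E16.5 library.

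Bcell1 was compared in the same way, a fit added after seeing the data because this code was present in 4 of the 5 HP libraries. Mt1 was higher at P0 by 1.54 ± 0.42 on the log2 scale (edgeR, Benjamini-Hochberg adjusted p = 0.02699), and the value at E18.5 did not pass (1.32 ± 0.43, edgeR, Benjamini-Hochberg adjusted p = 0.1553). The P0 call of Mt1 was lost with DESeq2 and without TMM. Without E16.5 library 2 its log2 fold change was 2.13. Mt2 had 0 and 1 UMIs in the E16.5 pair, 11 at E18.5 and 59 at P0 (10.9 CPM), and passed at P0 (edgeR, Benjamini-Hochberg adjusted p = 0.001146) but not at E18.5 (edgeR, Benjamini-Hochberg adjusted p = 0.6394). Of 10057 genes, 0.825% were called higher and 0.149% lower at P0, and 0.626% and 0.109% at E18.5. At P0 the Mt2 of Bcell1 was at 0.734% of its EryP1 level, with Klf1, Rhag and Ermap at 1.06%, 0.886% and 0.138%.

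Gene lists of the inputs known to drive metallothioneins were read in the same fits. In mast clusters at P0, 8 of 13 glucocorticoid response genes rose and none fell, where 7.89% of all genes were called higher and 3.17% lower, with a median log2 fold change of 1.66 over the list against -0.02 over all genes. Zbtb16 rose by 4.13 on the log2 scale, Nfkbia (the NF-κB inhibitor) by 2.70, Dusp1 (a MAP kinase phosphatase) by 2.32 and Tsc22d3 (the glucocorticoid-induced leucine zipper) by 2.22 (each past edgeR's test). DESeq2 called 3 of the 13. At E18.5, where 4.59% of all genes were called higher, 5 of 13 rose, with Zbtb16 at 2.50, Dusp1 at 1.88 and Nfkbia at 1.79, while Hsd11b1, which regenerates active glucocorticoid, fell by 2.36. DESeq2 called 2 of these 13. Of 15 genes linked to cell dissociation and heat shock, 7 rose at P0 and 4 at E18.5, whereas DESeq2 called 1 and 0, with 10 and 5 at an unadjusted p under 0.05 in edgeR. Among these, the stress factor Atf3 had 4.30 and 4.06, Jun 2.43 and 1.82, and Zfp36 2.00 and 1.61, with Egr1 at 2.44 at P0 and Nr4a1 at 1.78 at E18.5. Without Mast4, which carried stromal transcripts, 8 of 13 and 7 of 15 genes of these lists were likewise called higher at P0. Dusp1 and Nfkbia are also early response genes, so the 2 lists are not separate readouts. The higher Mt1 and Mt2 of mast clusters at P0 thus came with higher genes in both lists, and the part of these inputs was not tested.

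Among genes of zinc and copper handling, none of 26 passed as higher in mast clusters by edgeR or DESeq2, with 7 at an unadjusted p under 0.05 in either direction at P0 and 8 at E18.5 in edgeR, where 2608 and 2531 of all 11135 genes were. The zinc exporter genes Slc30a4 and Slc30a2 fell by 1.43 and 1.27 at P0, and Slc30a2 fell by 1.42 at E18.5. DESeq2 did not call these. Of the 10 oxidative stress (NRF2) genes tested, none passed by either tool, with 1 at an unadjusted p under 0.05 at P0 and 3 at E18.5 in edgeR. Of 5 genes of the IL-6 and STAT3 response, the transcription factor gene Stat3 passed at P0 with 0.98 and the cytokine gene Il6 at E18.5 with 1.18, and DESeq2 called neither. In edgeR, 1 of these 5 was at an unadjusted p under 0.05 at P0 and 2 at E18.5. Of all genes in the mast fits, 7.89% were called higher and 3.17% lower at P0, and 4.59% and 2.96% at E18.5. The shift of all genes without TMM in the mast fits was smaller than each change named here.

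In all HP cells, of the 78 genes of the 5 lists none passed at E18.5 or P0 in edgeR, with 15 and 12 at an unadjusted p under 0.05, where 1047 and 1368 of all 16114 genes were. DESeq2 called 2 higher and 2 lower at E18.5, and 1 higher and 3 lower at P0. In the adult Atp7b, a copper exporter gene, rose by 6.49 and Lcn2, which encodes a siderophore-binding protein of neutrophils, by 5.77, and Slc30a2 fell by 5.52, with 22 of the 78 at an unadjusted p under 0.05 in edgeR. Of all genes, 2462 were under it in the adult, and 1.35% were called higher and 0.993% lower. There DESeq2 called 4 higher and 8 lower. In HSPC clusters at P0 no gene of the lists was called higher by edgeR or DESeq2, with 14 of 71 at an unadjusted p under 0.05 in edgeR, and 5 fell in edgeR, while DESeq2 called 2 lower. Of all 11033 genes, 1346 were under that p and 4.26% were called lower. Hspa1a, a heat shock gene, fell by 3.72 and Atf3 by 1.84. Lifr, the receptor gene of LIF, fell by 4.17 and Socs3, a feedback inhibitor of STAT3, by 1.54, while the copper transporter gene Slc31a2 fell by 1.71. In Bcell1 none of 58 passed in edgeR or DESeq2 at either stage, with 2 and 4 at an unadjusted p under 0.05 in edgeR at E18.5 and P0, where 575 and 574 of all 10057 genes were.

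In stroma, where no test was possible, the folds of both genes were read against all genes of at least 10 CPM in the higher library. Mt1 was 2.33 times and Mt2 2.43 times higher at E18.5 than at E16.5, where 1.35% of 7994 genes were at least 2-fold higher and 0.625% and 0.5% were at least as high as Mt1 and Mt2. At P0 over E16.5 (3.28 and 5.14) these shares were 3.16% of 8030 genes, 0.560% and 0.162%. In the adult over E16.5 (4.73 and 8.13), 19.9% of 8975 genes were at least 2-fold higher, and 5.92% and 3.24% were at least as high. For P0 over E18.5 (1.41 and 2.12), adult over E18.5 (2.03 and 3.35) and adult over P0 (1.44 and 1.58), the shares of genes at least 2-fold higher were 0.503%, 16.1% and 14.9%. Genes at least as high as Mt1 and Mt2 were 4.83% and 0.340% for P0 over E18.5, 15.7% and 7.09% for adult over E18.5, and 31.7% and 25.2% for adult over P0. The E18.5 and P0 folds over E16.5 were thus reached by few genes, and the adult folds over P0 by many. Over E16.5, 5 of 12 glucocorticoid response genes were at least 2-fold higher at P0 and 7 of 12 in the adult, where 3.16% and 19.9% of all genes were. The IL-6 and STAT3 response had 0 of 6 at P0 and 7 of 8 in the adult, dissociation and heat shock 1 of 16 and 4 of 16, NRF2 genes 0 of 9 and 4 of 10, and zinc and copper handling 0 of 20 and 4 of 22, on the same base. The adult shares of the last list and of dissociation and heat shock (18.2% and 25.0%) are near that of all genes.

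Genes whose levels followed Mt1 plus Mt2 most closely differed between the compartments. Likeness was Spearman's rho over clusters of at least 50 cells, on log2(CPM + 10), among genes of at least 50 CPM in a cluster. In 73 HP clusters the 5 most alike of 7258 genes were Frrs1, a ferric reductase (0.692), Tm7sf3 (0.670), Dnajc25 (0.667), Ube2q2 (0.659) and Cops9 (0.656). None of these 5 was among the 5 most alike over the 37 HP clusters of at least 200 cells, so this order depends on which clusters are used. In 65 stromal clusters the 5 of 7678 genes were Sqstm1, the autophagy receptor p62 (0.699), Cebpb, a factor of the acute phase and stress response (0.693), Rrad (0.690), P2rx4 (0.678) and Zfp703 (0.675), of which Cebpb and Rrad remained over 48 clusters of at least 200 cells. Mt3 had 0.316 in stroma. By lists, the median rho in stroma was 0.414 for the IL-6 and STAT3 response, 0.378 for dissociation and heat shock, 0.298 for the glucocorticoid response, 0.265 for NRF2 and 0.0454 for zinc and copper handling, against 0.0187 for all genes. In HPs the medians were 0.253 for NRF2, 0.190 for zinc and copper handling, 0.136 for dissociation and heat shock, 0.105 for the IL-6 and STAT3 response and 0.0661 for the glucocorticoid response, against 0.0295.

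Within a library the Mt1 and Mt2 UMIs were held unevenly by the cells. A gene with few UMIs per cell is found in few cells by sparsity alone, and the part of sparsity was not tested. The tenth of cells with most Mt1 and Mt2 UMIs held between 38.4% of these UMIs in E16.5 HP library 1 and 85.3% in E16.5 stroma. The same cells held 12.7% to 26.6% of the UMIs of all genes. An Mt1 UMI was found in 24.6% of E16.5 stromal cells up to 73.0% of the cells of E16.5 HP library 1, and in 5.72% to 29.3% once each cell was thinned to 1000 UMIs. For Mt2 the shares were 1.49% to 46.0%, and 0.127% to 10.8% after thinning. Of cells with an Mt2 UMI, 63.0% (E16.5 stroma) to 93.1% (E16.5 HP library 1) also held an Mt1 UMI. Of cells with an Mt1 UMI, 2.63% (E16.5 HP library 2) to 63.9% (adult stroma) also held an Mt2 UMI.

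Depth and the mitochondrial share of a cell moved with Mt1 in some libraries. At P0 in HPs, Mt1 went from 231 CPM in the fifth of cells with fewest UMIs to 1315 CPM in the group with most, which includes much of the deeply sequenced EryP1 (median 37938 UMIs per cell against 19447.5 in the library). In E18.5 stroma it went from 139 to 380 CPM, and in adult stroma from 610 to 436 CPM. By the mitochondrial share of UMIs, Mt1 was at 1206 CPM in the fifth of P0 HPs with the lowest share and 507 CPM in that with the highest, at 401 and 171 CPM in E18.5 stroma, and at 606 and 546 CPM in adult stroma. The shallowest cells of P0 stroma (median 902 UMIs) had 563 CPM of Mt1, above the 235 CPM of the next deeper group. In E18.5 HPs the shallowest group (median 453.5 UMIs) had 566 CPM of Mt1 and 177 CPM of Mt2, against 165 and 30.8 CPM. In adult HPs (median 625 UMIs) it had 464 and 106 CPM, against 67.9 and 12.4 CPM. At P0 the shallowest HPs were not higher, at 231 against 237 CPM of Mt1. The undefined cluster UD2i (817 of 3477 E18.5 HP cells, median 476 UMIs) had 443 CPM of Mt1 and 127 CPM of Mt2. The part of these measures in the differences between clusters and stages was not tested.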

How the data were processed

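Single-cell mRNA of HPs and stroma was analysed in 9 libraries. The authors aligned reads with Cell Ranger 3.1.0 to mm10 (3.0.0) and filtered and annotated cells in Seurat 3.1.5. The deposited values are unnormalized UMI counts of each gene in each cell. The mitochondrial share of each cell was deposited as a fraction. The authors had removed cells with few UMIs, with a high mitochondrial share or with very many genes or UMIs, and rare genes. No doublet caller was run here. The deposited antibody counts were not used here.

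UMIs were summed per library, or per cluster and library, and divided by the total (13974733 to 194892476 UMIs per library) to give CPM. Intervals are exact Poisson for CPM, exact conditional binomial for ratios of UMIs and exact binomial for shares of cells, at 95%, and cover counting error only. Stages were compared in HPs with edgeR 4.0.16 (R 4.3.3), with TMM, filterByExpr, the quasi-likelihood test and Benjamini-Hochberg adjustment over all genes at 0.05. The SE given with an edgeR log2 fold change was derived from the test. It is the absolute log2 fold change divided by the square root of the F statistic. DESeq2 1.42.0, library sizes without TMM, genes with any count, cells of at least 1000 UMIs and each E16.5 library left out were the alternatives. The edgeR step was tested on simulated data, with every library drawn at the common dispersion of the fit. It thus cannot show whether single libraries vary like the E16.5 pair. Of simulated 8-fold changes, 59% (P0) to 64% (adult) were recovered in all HP cells and 99% to 100% in the other fits. Stroma, with 1 library per stage, was not tested, and later HP stages, also with 1 library each, were tested on the assumption that they vary like the E16.5 pair. Mt1 and Mt2 were named throughout, of each gene list up to 4 genes with the largest change past the test per comparison, the 5 genes most alike in each compartment, and defining markers of clusters. The genes and lists were chosen with earlier results of these data known. The erythroid percentages, the Bcell1 fit, and the values without shared barcodes, without EryP and MegP, without HSPC4, without Mast4, without MyP4 or without the cell of a cluster with most Mt1 and Mt2 UMIs were added after seeing the data.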

Additional observations from a re-analysis of the deposited data

Results flagged for a closer look

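HPs and stroma went opposite ways from the perinatal stages to the adult. For Mt1, adult over E18.5 was 0.695 in HPs and 2.03 in stroma, and adult over P0 was 0.396 in HPs and 1.44 in stroma. For Mt2, adult over E18.5 was 0.674 in HPs and 3.35 in stroma, and adult over P0 was 0.228 in HPs and 1.58 in stroma. These were singled out because the only library of one compartment moved down while that of the other moved up. The difference between the compartments was not tested, since each of these stages has 1 library per compartment.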

How the results depend on the processing

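The E16.5 HP pair is the only replicated group, and edgeR had 1 residual degree of freedom. No paired analysis was possible because only E16.5 HPs have more than 1 library, so the stages share only replicate number 1. DESeq2 gave no adjusted p for Mt2 of Bcell1 at P0. Across these alternatives 162 main values or calls stayed the same, 48 moved, 7 became stronger, 5 weaker and 4 turned. The ones that did not stay are given here, and the cause was not tested.

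In stroma, with mitochondrial, ribosomal protein and hemoglobin UMIs left out of the total, E18.5, P0 and adult over E16.5 and adult over P0 were 2.17, 3.13, 3.77 and 1.205 for Mt1 and 2.27, 4.90, 6.48 and 1.32 for Mt2. With the mean of per-cell CPM they were 2.24, 3.89, 5.85 and 1.504 for Mt1 and 2.30, 6.03, 9.12 and 1.51 for Mt2. With that mean in HPs, the log2 ratio of Mt2 over the E16.5 pair was 5.38 at P0 and 3.55 in the adult.

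In all HP cells, Mt2 at E18.5 passed with DESeq2 (5.26) and with genes of any count (5.36), and so did Mt1 at P0 (2.51 and 2.60). Without EryP and MegP clusters, Mt2 did not pass at P0 (4.20) or in the adult (1.29). Leaving out 1 E16.5 library gave log2 fold changes at E18.5, P0 and adult of 1.07 to 2.56, 1.95 to 3.46 and 0.79 to 2.30 for Mt1, and 4.57 to 6.46, 6.20 to 8.12 and 4.24 to 6.16 for Mt2. In mast clusters Mt1 at E18.5 passed without TMM (1.48), with genes of any count (1.36) and without shared barcodes (1.26), and Mt1 at P0 did not pass with DESeq2 (1.52). The adult mast values turned to -1.16 for Mt1 without shared barcodes, which left 2 Mt1 UMIs, and for Mt2, with no UMI left, to -6.25 without them and -6.25 in cells of at least 1000 UMIs. Leaving out 1 E16.5 library gave 0.89 to 1.82 at E18.5 and 1.07 to 2.00 at P0 for Mt1 in mast clusters, 4.81 to 4.86 and 5.59 to 5.64 for Mt2, and 0.11 to 2.06 for Mt1 in HSPC clusters, where Mt1 turned to -0.16 without HSPC4. In Bcell1, Mt1 at P0 did not pass with DESeq2 (1.57) or without TMM (1.43), and leaving out 1 library gave 1.07 to 1.93 and 1.27 to 2.13 for Mt1 and 2.77 to 6.32 and 4.597 to 8.15 for Mt2 at E18.5 and P0.

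The Mt2 to Mt1 ratio of adult MyP4 was 0.412 in cells of at least 1000 UMIs. Of the 5 genes most alike, 0 in HPs and 2 in stroma were shared with those over clusters of at least 200 cells. Without shared barcodes, 3 in HPs were shared. Thinning to 1000 UMIs left an Mt1 UMI in 6.42% of cells of E16.5 HP library 2 and 5.72% of E16.5 stroma. For Mt2 these shares were 0.127% and 1.35%. The 100% given for these libraries below is reached whenever so few cells hold such a UMI, so it does not measure unevenness. For the other libraries the part of sparsity was not tested. After thinning to 1000 UMIs, the tenth of cells with most Mt1 and Mt2 UMIs held 70.9% and 100% in the E16.5 HP pair, 76.0%, 63.4% and 75.9% in E18.5, P0 and adult HPs, and 100%, 91.3%, 72.4% and 61.5% in stroma from E16.5 to adult.

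Counts of called genes moved more than the values did. In all HP cells, the 1 higher and 0 lower at E18.5 (1047 at an unadjusted p under 0.05) became 135 and 211 with DESeq2, 219 and 266 with genes of any count and 2 and 0 without TMM. The 27 and 20 at P0 became 276 and 437 with genes of any count, 38 and 32 without TMM, and 0 and 0 without EryP and MegP (1251 at an unadjusted p under 0.05 in edgeR). The 218 and 160 in the adult became 684 and 831 with genes of any count. In mast clusters, genes of any count gave 928 higher at E18.5, 1341 at P0, and 37 and 1 in the adult in place of 17 and 0, where cells of at least 1000 UMIs gave 8. Without shared barcodes 500 were lower at E18.5 and 554 at P0. In Bcell1 the 63 and 11 at E18.5 and 83 and 15 at P0 became 4 and 0, and 10 and 3, with DESeq2.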
